A study of Mus musculus with 9 samples.

Results

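Genes of cholesterol and fatty acid synthesis were compared in regulatory T cells (Tregs) of the mouse gut. The set had 30 genes, chosen by name for their place in sterol synthesis, fatty acid synthesis or the control of both by the SREBP transcription factors. Of these, 28 were each named alone by an array feature, among 22180 such genes in all, and 26 were bright enough to test among 12792 tested genes. All 26 exceeded the median of their array on all 9 arrays, so none entered the tests through only its brightest group.

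Tregs of small and large intestinal lamina propria were sorted by a red fluorescent protein tied to Foxp3, and their RNA was hybridized to Affymetrix mouse Gene ST2.0 arrays. The wild-type (WT) group, the Y3 group and the Y3/CD103-/- group had 3 arrays each, all on the C57BL/6 strain and untreated as far as the labels say. Y3 is not described in the labels. It was read as an alteration of the IL-2 receptor β chain (gene Il2rb) from the title of the series. CD103 is the αE integrin chain, encoded by Itgae. Age and the allele behind each genotype were not stated in these sources, and no group lacked CD103 alone. Replicates may be single mice or pools, which the labels leave unsaid, so p-values measure the spread between these arrays, and their number limits the precision.

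Cells build cholesterol from acetyl-CoA by way of mevalonate, farnesyl diphosphate, squalene and lanosterol, and farnesyl diphosphate also feeds the lipid anchors of small GTPases. Fatty acids are built from the same acetyl-CoA by acetyl-CoA carboxylase and fatty acid synthase and are then elongated and desaturated. When sterols are low, SCAP carries the SREBP proteins from the endoplasmic reticulum to be cleaved, and INSIG proteins hold them back when sterols are high. Activated T cells raise both pathways, and in Tregs mevalonate metabolism is known to be needed for suppressive function.

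Promoter windows were read to show what the genes share in sequence apart from their signal. RefSeq promoter sequences (build GRCm38.p6) were at hand for 23 of the 30 genes, and the 250 bases before each start were searched on both strands. The NF-Y box CCAAT, a frequent partner site of SREBP, was found in 19 of the 23 genes (82.6%), against 37.5% of 27025 genes with a window. The GC box GGGCGG was found in 19 of 23 as well (82.6% against 35.4%). The sterol regulatory element, searched as TCACNCCAC, was found in 1 of 23 (4.35% against 1.22%), that of Hmgcs1. The 27025 genes were not limited to those bright enough to test on the arrays, so these shares compare unlike sets. A match is a description and not a site of binding. The windows of Nsdhl and Elovl6, whose changes passed the test, of Fasn and of Hmgcs1 follow, 5′ to 3′ along each gene, with matches to the 3 motifs in capitals.
Hmgcs1: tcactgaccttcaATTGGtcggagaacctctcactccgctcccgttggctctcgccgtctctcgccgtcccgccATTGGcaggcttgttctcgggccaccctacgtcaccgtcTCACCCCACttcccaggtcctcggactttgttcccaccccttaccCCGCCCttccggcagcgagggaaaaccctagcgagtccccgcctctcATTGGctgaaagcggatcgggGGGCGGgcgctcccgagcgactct
Nsdhl: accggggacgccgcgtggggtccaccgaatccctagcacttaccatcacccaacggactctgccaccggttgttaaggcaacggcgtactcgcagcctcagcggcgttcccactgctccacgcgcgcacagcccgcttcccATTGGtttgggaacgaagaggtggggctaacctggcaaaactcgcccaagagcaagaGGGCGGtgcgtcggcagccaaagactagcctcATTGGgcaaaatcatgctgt
Fasn: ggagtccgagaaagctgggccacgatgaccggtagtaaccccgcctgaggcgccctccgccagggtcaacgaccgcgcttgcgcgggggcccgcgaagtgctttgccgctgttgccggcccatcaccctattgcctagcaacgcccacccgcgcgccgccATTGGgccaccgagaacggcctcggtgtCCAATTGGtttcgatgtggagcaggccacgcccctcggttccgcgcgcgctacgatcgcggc
Elovl6: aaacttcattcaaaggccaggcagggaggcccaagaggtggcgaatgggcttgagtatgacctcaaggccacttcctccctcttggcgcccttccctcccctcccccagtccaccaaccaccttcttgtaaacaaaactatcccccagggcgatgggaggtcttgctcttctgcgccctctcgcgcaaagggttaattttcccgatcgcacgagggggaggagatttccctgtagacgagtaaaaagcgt
These windows lie at chr13:119690101-119690350 (plus strand), chrX:72918271-72918520 (plus), chr11:120824548-120824797 (minus) and chr3:129532136-129532385 (plus). In the Hmgcs1 window the sterol regulatory element began 137 bases before the start, with 3 NF-Y boxes and 2 GC boxes. The Nsdhl window held 2 NF-Y boxes and 1 GC box, and the Fasn window 3 NF-Y boxes, of which a pair on opposite strands overlap. None of the 3 motifs was found in the Elovl6 window.

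The libraries were checked against their labels first. The signal of Itgae was 6.05 to 6.86 (log2) on the Y3/CD103-/- arrays and at least 7.85 on every other array. Those other groups were not alike, since Itgae averaged 7.93 for WT and 9.32 for Y3, 2.63-fold higher (adjusted p = 0.0169 with limma). Il2rb averaged 9.19 ± 0.22 (SD, n = 3) for WT, 8.15 ± 0.32 for Y3 and 8.16 ± 0.31 for Y3/CD103-/-. Of 12 Treg and T cell markers 11 were measured, all above the array median on all 9 arrays, and the mean of the list lay between 9.27 and 9.55. Intestinal epithelial markers did differ between arrays. The mean of their 20 genes was 4.60 to 5.68 for WT, 3.75 to 4.12 for Y3 and 3.76 to 5.05 for Y3/CD103-/-, and 13 of them exceeded the median on all 9 arrays. The mean of 14 measured macrophage and dendritic cell markers (of 16) was 3.88 to 4.45, 3.75 to 3.87 and 4.09 to 4.25. That of 8 B and plasma cell markers (of 9) was 3.29 to 3.54, 3.14 to 3.30 and 3.31 to 3.61. In adipocytes, whose fatty acid synthesis is high, the list of 8 markers had 7 measured, with 4 at or below the median on every array and list means of 2.45 to 2.94. The 9 stromal and endothelial markers had means of 3.30 to 3.55, 3.07 to 3.14 and 3.07 to 3.38. The part of other cells in the results below was not tested. Y3 arrays 1 and 3 were the replicate pair most alike (r = 0.979 across features, against 0.917 to 0.956 for other pairs of 1 group).

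**Figure D1:**
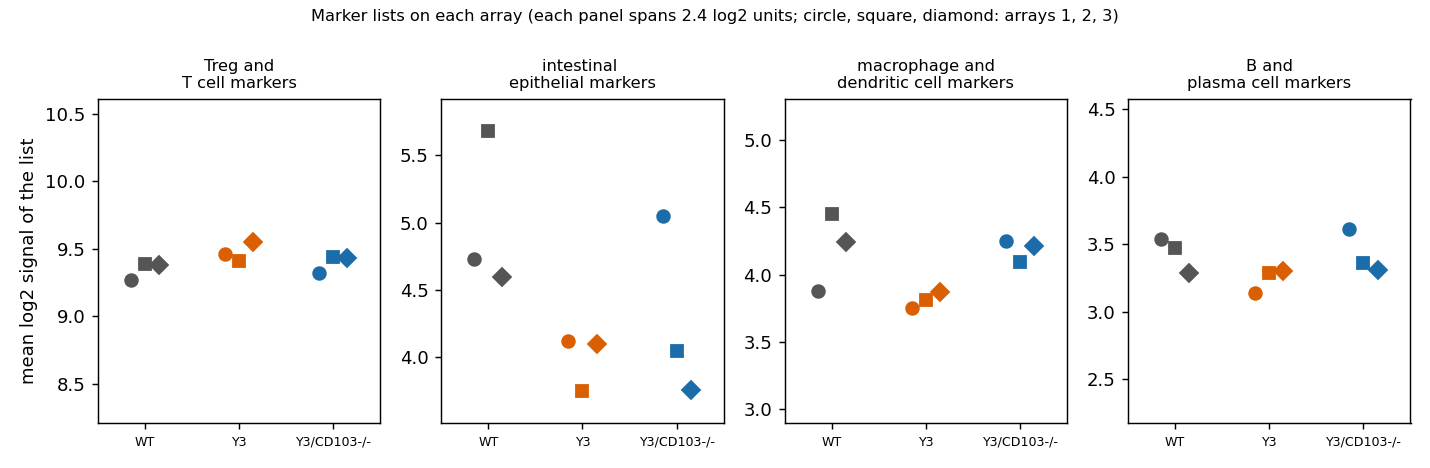
Mean log2 signal of 4 lists of cell type markers on each array, by genotype; each point is an array. The T cell list lay between 9.27 and 9.55 throughout, while the epithelial list was highest on WT array 2 (5.68) and lower on all Y3 arrays (3.75 to 4.12) than on any WT array.

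The first comparison asked which of these genes differ with Y3. Nsdhl, the sterol dehydrogenase that acts in removing methyl groups from lanosterol-derived sterols, was 3.08-fold higher in Y3 than in WT, and it alone of the 26 passed the adjusted threshold. Elovl6, Acaca and Fasn, which build and lengthen fatty acids, were also higher on every Y3 array than on every WT array, without passing. So were the sterol enzymes Fdps, Mvd and Cyp51, the control genes Srebf1 and Srebf2, and Acly. The groups overlapped for the elongases Elovl1 and Elovl5. The tested desaturases Fads1 and Fads2 differed by -0.02 and -0.70. The median log2 difference of the set was 0.18, against 0.15 for all genes tested. Without WT array 2 these medians were 0.31 and 0.14.

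With limma, 1 of 26 genes rose and 0 fell in Y3 at an adjusted p (Benjamini-Hochberg, over all genes tested) under 0.05, a threshold that 0.79% of all genes passed. At an unadjusted p under 0.05, 6 were higher (23.1% of the set, against 13.4% of all genes) and 0 lower (against 3.6%). The groups did not overlap for 10 genes that were higher (38.5%, against 19% of all genes) and 1 that was lower (3.85%, against 4.93%). In all, 21 genes had a positive and 5 a negative difference, and 70.5% of all genes had a positive one. Relative to the all-gene median, 14 of the 26 lay above. The counts at an unadjusted p depended on the scaling. The split of 6 higher and 0 lower became 3 and 0 after quantile normalization, which brought the all-gene median from 0.15 to 0.04, and 3 and 1 after centring on the genes tested, which brought it to -0.02. The matching shares of all genes were not counted after either rescaling. Quantile normalization also brought the difference of Nsdhl from 1.62 to 1.46, of Elovl6 from 0.86 to 0.69 and of Acaca from 0.68 to 0.55. It brought Fdps from 0.55 to 0.38, Fasn from 0.45 to 0.28 and Acly from 0.32 to 0.15.

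**Figure D2:**
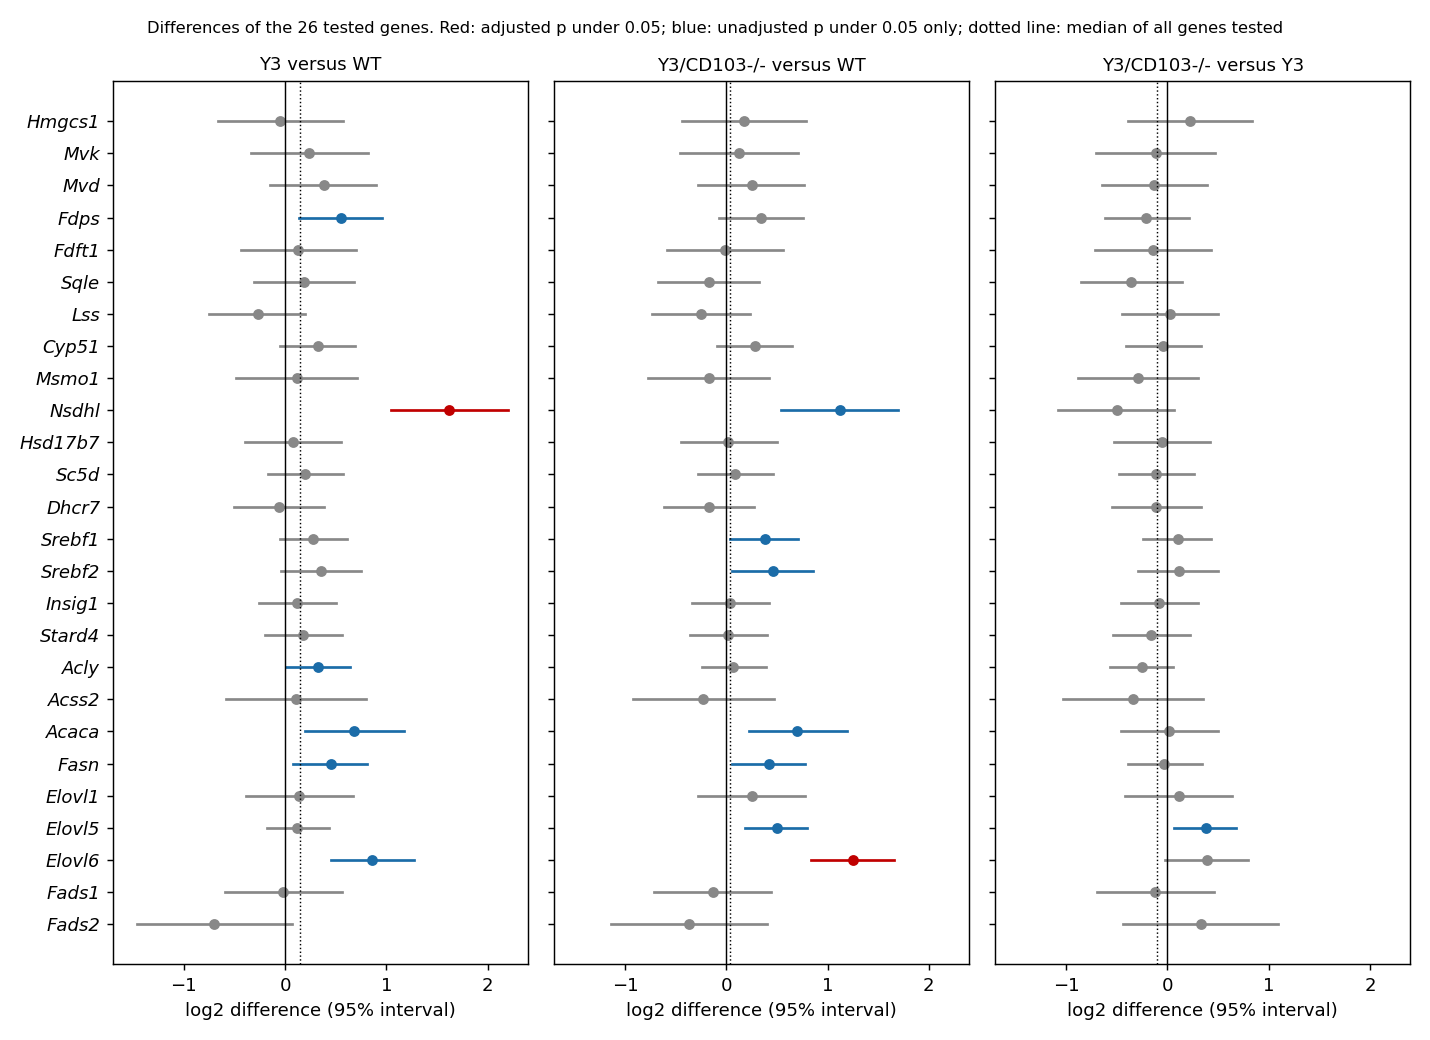
Log2 difference and 95% interval of each of the 26 tested genes in the 3 comparisons; the dotted line is the median of all genes tested (0.15, 0.04 and -0.10). Nsdhl in Y3 versus WT and Elovl6 in Y3/CD103-/- versus WT are the 2 red intervals that passed the adjusted threshold, and 0 genes passed in Y3/CD103-/- versus Y3.

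Among the enzymes of sterol synthesis, Nsdhl had signals of 5.27, 4.37 and 4.03 for WT arrays 1, 2 and 3, 6.12, 6.19 and 6.23 for Y3, and 5.70, 5.66 and 5.67 for Y3/CD103-/-, always in that array order. The 3 groups did not overlap, WT array 1 lay nearest to the others, and the WT arrays were the ones that spread. Nsdhl rose by 1.62 log2 in Y3 (SE 0.26, adjusted p = 0.0209 with limma, higher on 3 of 3 arrays). In bulk RNA, a change within Tregs and a change in the share of other cells in the sort cannot be told apart. The call was lost without WT array 2 (adjusted p = 0.0688), without Y3 arrays 1, 2 or 3 (0.0963, 0.0776 and 0.122) and with the fit limited to the 6 arrays compared (0.058), while the difference stayed between 1.36 and 1.98 with any 1 array left out. Nsdhl is on the X chromosome, so sex-linked transcripts were read as well. Eif2s3y of the Y chromosome lay between 6.34 and 7.11 on all 9 arrays, and Xist between 2.22 and 3.06, below the median of its array throughout.

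The enzymes that work beside Nsdhl in the same demethylation did not pass. Msmo1, the methylsterol oxidase, averaged 6.02 ± 0.48 (SD, n = 3) in WT and 6.14 ± 0.26 in Y3, a difference of 0.12 (95% interval -0.48 to 0.71). Hsd17b7, the ketosteroid reductase, averaged 3.57 ± 0.29 and 3.65 ± 0.20, a difference of 0.08 (-0.40 to 0.55). Whether Nsdhl differed from these partners in its change was not tested. Both intervals lie below the interval of Nsdhl, which ran from 1.05 to 2.20.

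Upstream of squalene, Fdps, which makes farnesyl diphosphate, had signals of 4.59, 5.05 and 4.64 for WT, 5.35, 5.20 and 5.39 for Y3, and 5.09, 4.86 and 5.38 for Y3/CD103-/-. The Y3 arrays lay above all WT arrays, and the difference was 0.55 ± 0.19 (SE; adjusted p = 0.189 with limma). Hmgcs1, the HMG-CoA synthase that starts the pathway, had 6.32, 7.38 and 7.37 for WT, 6.71, 7.07 and 7.15 for Y3, and 7.34, 7.34 and 6.91 for Y3/CD103-/-. WT array 1 was its lowest value, and its difference in Y3 was -0.05 (95% interval -0.66 to 0.57). Of the mevalonate enzymes, the kinase Mvk differed by 0.24 and the decarboxylase Mvd by 0.38, the latter without overlap of the groups (WT 3.53 to 3.83, Y3 3.87 to 4.26). Fdft1, the squalene synthase, differed by 0.13.

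From squalene on, Sqle, the squalene epoxidase that is a rate-limiting step, averaged 5.88 ± 0.11 for WT, 6.07 ± 0.22 for Y3 and 5.71 ± 0.46 for Y3/CD103-/-. Cyp51, the lanosterol demethylase, had 6.79, 7.25 and 7.28 in WT and 7.34, 7.45 and 7.49 in Y3, which did not overlap (difference 0.32, adjusted p = 0.356). Lss, the lanosterol synthase, differed by -0.27 in Y3 (-0.75 to 0.20). The late enzymes Sc5d and Dhcr7 differed by 0.20 and -0.06. Of the 13 tested sterol enzymes, 10 were thus higher in Y3 (70.5% of all genes were) and 3 lower, with 1 rise, and 7 lay above the all-gene median. On the feature that Idi1, the isopentenyl diphosphate isomerase, shares with Gm13502, the Y3 arrays had 5.08 to 5.62 and the WT arrays 4.43 to 5.49. Stard4, a carrier of cholesterol between membranes, differed by 0.18 (-0.20 to 0.56).

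The genes of sterol sensing were read next. Srebf2, which encodes the main activator of sterol synthesis genes, had 7.29, 7.53 and 7.05 for WT, 7.62, 7.72 and 7.60 for Y3, and 7.88, 7.92 and 7.47 for Y3/CD103-/-. Its Y3 arrays exceeded every WT array, while Y3/CD103-/- array 3 lay within the WT range. The differences from WT were 0.35 ± 0.18 (SE; adjusted p = 0.341) in Y3 and 0.46 ± 0.18 (adjusted p = 0.294) in Y3/CD103-/-. Srebf1, which encodes the activator of fatty acid synthesis genes, had 5.0, 4.65 and 4.64 for WT, 5.04, 5.01 and 5.08 for Y3, and 5.11, 5.10 and 5.21 for Y3/CD103-/-. The 3 groups were ordered without overlap, with WT array 1 just below the Y3 arrays, and the differences of 0.28 and 0.38 did not pass (adjusted p = 0.371 and 0.307). Insig1, the sterol sensor that is itself an SREBP target, had 7.42, 7.69 and 7.83 for WT, 7.57, 7.83 and 7.90 for Y3, and 7.63, 7.88 and 7.55 for Y3/CD103-/-. All its groups overlapped, and its interval in Y3 ran from -0.26 to 0.50.

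**Figure D3:**
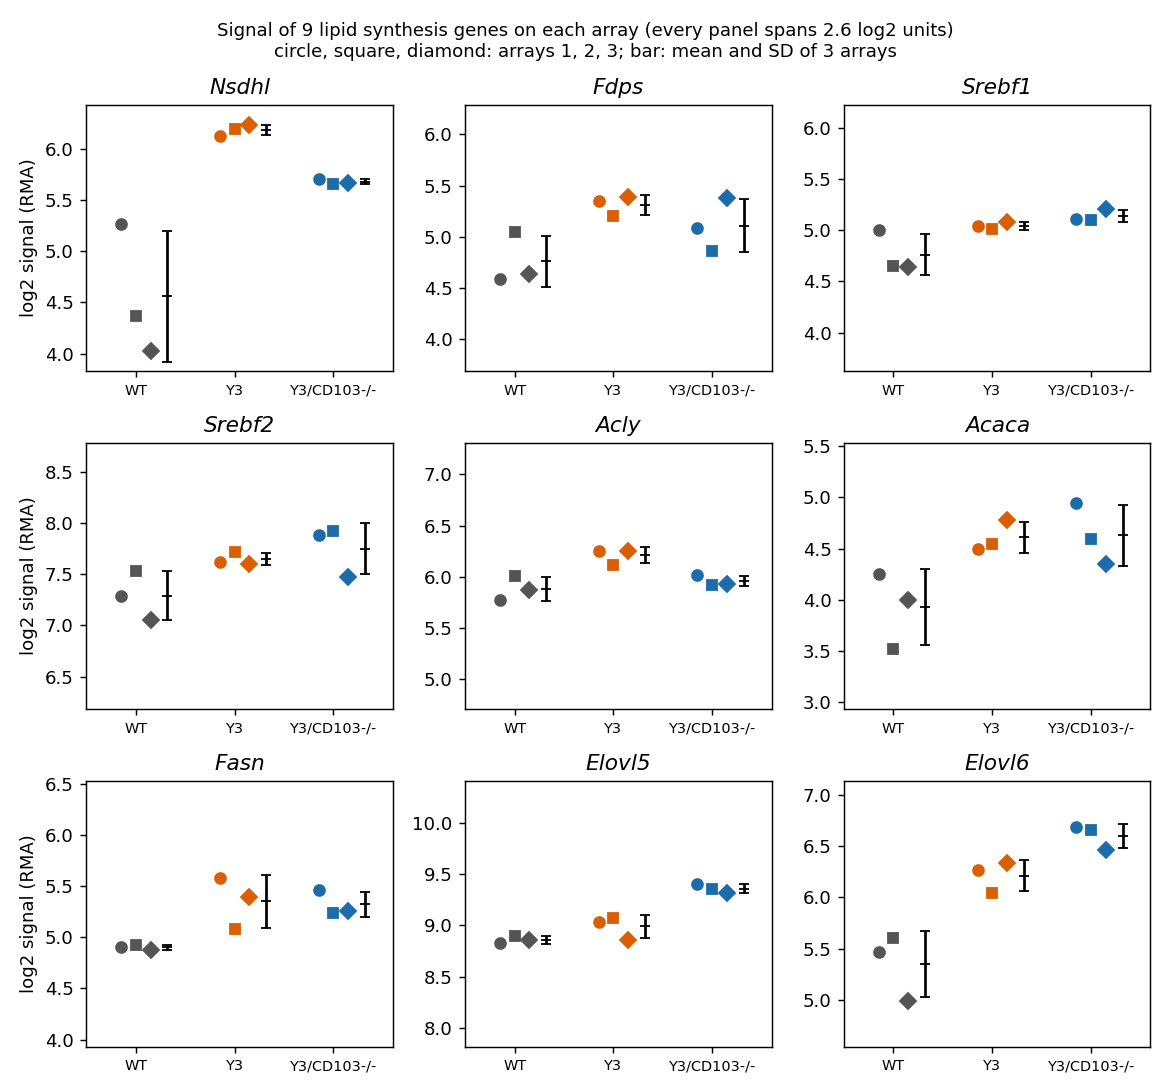
Log2 signal of 9 of the genes on each array by genotype, with the mean and SD of 3 arrays as bars. Nsdhl sat between 6.12 and 6.23 in Y3 and between 4.03 and 5.27 in WT, and Elovl6 rose from at most 5.60 in WT to at least 6.46 in Y3/CD103-/-.

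On the fatty acid side, Elovl6, the elongase that lengthens palmitate to stearate, had 5.47, 5.60 and 4.99 for WT, 6.27, 6.04 and 6.33 for Y3, and 6.69, 6.66 and 6.46 for Y3/CD103-/-. The 3 groups did not overlap and were ordered WT, Y3, Y3/CD103-/-. Against WT the difference in Y3, 0.86 ± 0.19 (SE), was 1.81-fold and missed the threshold (adjusted p = 0.067). Acaca, the cytosolic acetyl-CoA carboxylase, had 4.25, 3.52 and 4.0 for WT, 4.50, 4.55 and 4.78 for Y3, and 4.95, 4.59 and 4.35 for Y3/CD103-/-. Every array of both altered groups exceeded every WT array, and the differences were 0.68 ± 0.22 (adjusted p = 0.171) in Y3 and 0.70 ± 0.22 (0.187) in Y3/CD103-/-. Fasn, the fatty acid synthase, had 4.90, 4.92 and 4.88 for WT, 5.58, 5.08 and 5.39 for Y3, and 5.46, 5.24 and 5.26 for Y3/CD103-/-. It too was without overlap, by 0.45 ± 0.17 (adjusted p = 0.217) and 0.42 ± 0.17 (0.297).

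Genes that supply acetyl-CoA were less uniform. Acly, which cleaves citrate to acetyl-CoA in the cytosol, had 5.77, 6.01 and 5.87 for WT, 6.25, 6.12 and 6.25 for Y3, and 6.02, 5.92 and 5.93 for Y3/CD103-/-. The Y3 arrays lay above both other groups, by 0.32 over WT (adjusted p = 0.279), and the Y3/CD103-/- arrays overlapped WT. Acss2, the cytosolic acetate-activating enzyme, had the widest spread in Y3, with 4.69, 3.37 and 4.52, and its difference of 0.11 had an interval of -0.58 to 0.80. Me1, the malic enzyme that yields NADPH, was below the array median on all 9 arrays (1.10 to 2.16) and was not tested.

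The other elongases had small differences in Y3, 0.14 for Elovl1, which acts on saturated very long chains, and 0.12 for Elovl5, which acts on polyunsaturated chains. The tested desaturases had no positive difference in Y3. Fads2, which starts polyunsaturated fatty acid synthesis, had 4.19, 4.66 and 4.18 for WT, 3.74, 3.53 and 3.67 for Y3, and 4.96, 3.31 and 3.65 for Y3/CD103-/-. Its Y3 arrays lay below every WT array (difference -0.70 ± 0.35, adjusted p = 0.335), and Y3/CD103-/- array 1 held its highest value. The epithelial list was likewise low on the Y3 arrays and, within Y3/CD103-/-, highest on array 1 (5.05, against 4.05 and 3.76). Its part in the Fads2 signal was not tested. Fads1 differed by -0.02 (-0.59 to 0.56). Scd1, the stearoyl-CoA desaturase, was below the array median on all 9 arrays, at 2.55 to 3.17 for WT, 1.67 to 2.04 for Y3 and 2.21 to 3.02 for Y3/CD103-/-, and was not tested. The feature that Scd2 shares with Mir5114 had 4.72 to 5.32 in WT and 4.56 to 5.04 in Y3.

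The second comparison set Y3/CD103-/- against the same WT arrays, so its values are not independent of those above. Elovl6 rose 2.38-fold, by 1.25 ± 0.19 log2 (adjusted p = 0.0152 with limma, 3 of 3 arrays above all WT arrays), and was the member that passed here. Nsdhl was 2.17-fold higher (1.12 ± 0.26) and missed the threshold (adjusted p = 0.0842), which it passed without WT array 1 (0.00938). Elovl5 was at 9.40, 9.36 and 9.32, against 8.83, 8.90 and 8.86 in WT and 9.03, 9.07 and 8.86 in Y3. The Y3/CD103-/- arrays of Elovl5 stood above all others, by 0.50 ± 0.14 over WT (adjusted p = 0.142). The rise of Elovl6 did not pass without Y3/CD103-/- array 1 (0.0545) or array 2 (0.0541), or with the 6 arrays alone (0.0773).

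In that comparison 1 of 26 genes rose and 0 fell, where 0.836% of all genes passed. At an unadjusted p under 0.05, 7 were higher (26.9%, against 7.9% of all genes) and 0 lower (against 5.35%), and the 7 were Elovl6, Nsdhl, Elovl5, Acaca, Srebf2, Fasn and Srebf1. Leaving out WT array 3 brought the 7 to 4. The groups did not overlap for 7 higher genes (26.9%, against 10.7%) and 0 lower (against 6.68%). The 13 sterol enzymes had a median difference of 0.09 and the 3 elongases 0.50, with 0.04 for all genes. Sterol enzymes other than Nsdhl lay between -0.25 (Lss) and 0.34 (Fdps).

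The third comparison, Y3/CD103-/- against Y3, addressed loss of CD103 on a Y3 background and shares the Y3 arrays with the first. With limma 0 of 26 genes passed, as 0.00782% of all genes did (1 gene). At an unadjusted p under 0.05, 1 was higher (against 1.78% of all genes) and 0 lower (against 8.12%). That gene was Elovl5 (0.38 ± 0.14, 95% interval 0.07 to 0.68, adjusted p = 0.441). Elovl6 was 0.39 higher (-0.02 to 0.80, adjusted p = 0.52) and Nsdhl was lower, at -0.50 (-1.08 to 0.07, adjusted p = 0.543), and neither overlapped between the groups. Srebf1 was also higher without overlap, by 0.10, and Acly lower without overlap, by -0.25. In total the groups did not overlap for 3 higher genes (against 4.11% of all genes) and 2 lower (against 14.4%). Of the 13 sterol enzymes 11 had a negative difference and 2 a positive one, with a median of -0.11 against -0.10 for all genes. A positive difference was found for 33.8% of all genes. The median of the whole set, -0.09, was 0.01 after quantile normalization, 0.06 after centring on the genes tested and 0.06 without Y3/CD103-/- array 3. For Acaca and Fasn the differences were 0.02 (-0.46 to 0.50) and -0.03 (-0.39 to 0.34).

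Arrays of 1 group differed among themselves in the sterol enzymes, a pattern chosen after its values were seen. On WT array 1, 7 of the 13 tested sterol enzymes had the lowest signal of the 3 WT arrays (53.8%, against 30.9% of all genes), among them Hmgcs1, Msmo1 (5.49, against 6.41 and 6.15) and Cyp51. On Y3/CD103-/- array 3 it was 9 of 13 (69.2%, against 26.5%), with Msmo1 at 5.39 and Dhcr7 at 4.02. Nsdhl ran the other way, being highest of the WT arrays on array 1. The mean of the 13 was 5.15, 5.47 and 5.17 for WT, 5.51, 5.49 and 5.59 for Y3, and 5.46, 5.49 and 5.22 in Y3/CD103-/-, so WT array 2 and the first 2 Y3/CD103-/- arrays lay close to the Y3 arrays.

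**Figure D4:**
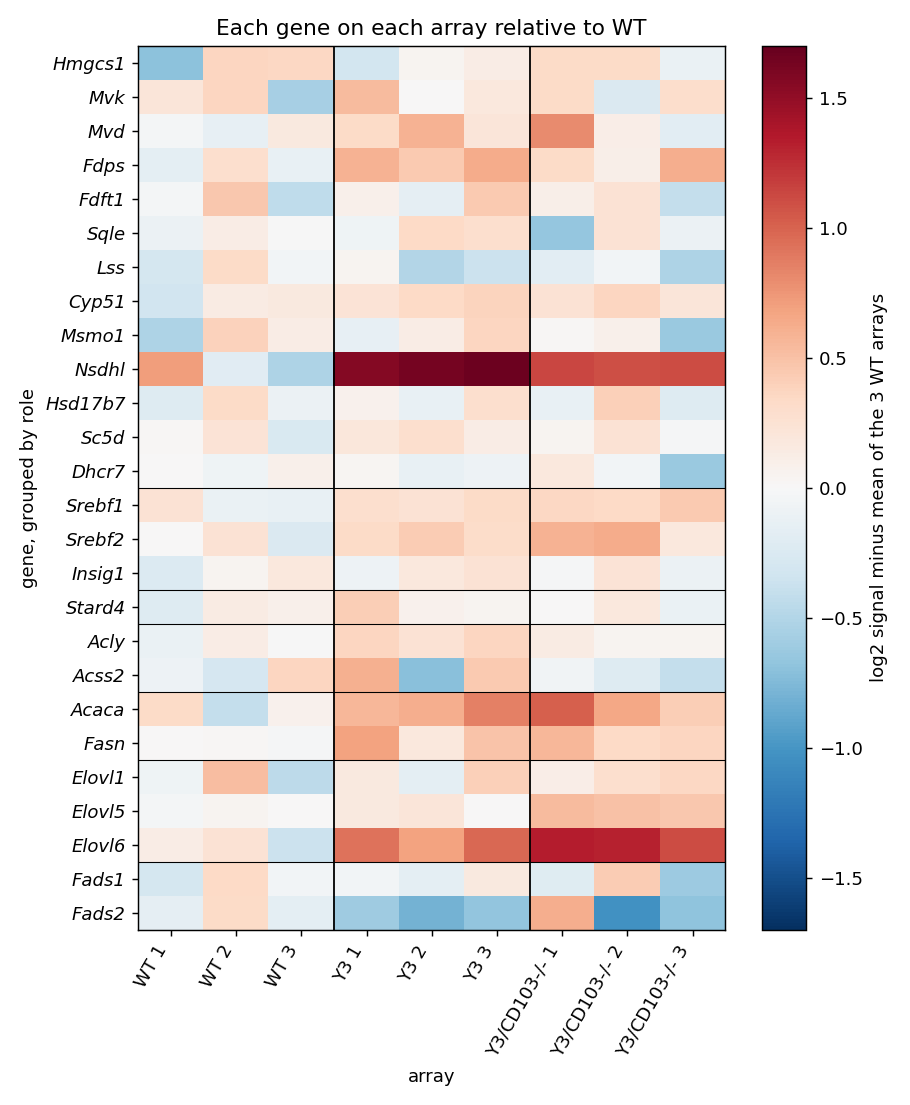
Log2 signal of the 26 tested genes on each array minus the mean of the 3 WT arrays, grouped by role; red is higher and blue lower than WT. Nsdhl and Elovl6 are red on all 6 Y3 and Y3/CD103-/- arrays, while Hmgcs1 and Msmo1 are blue on WT array 1.

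Other genes of lipid metabolism were read from lists drawn up by pathway. Of 18 further genes of sterol synthesis and uptake, 12 were tested. In Y3 0 passed with limma, where 0.79% of all genes did. At an unadjusted p under 0.05, 0 were higher and 0 lower (13.4% and 3.6% of all genes). Their median was 0.14, against 0.15 for all genes. In Y3/CD103-/- against WT 0 passed (0.836% of all genes did), and 1 was higher at an unadjusted p under 0.05 (7.9% of all genes). This was Ebp, the sterol isomerase that follows demethylation, by 0.50 (adjusted p = 0.277). Against Y3, 1 was lower at an unadjusted p under 0.05 (8.12% of all genes). This was Insig2, the second INSIG protein, at -0.69 (adjusted p = 0.439). Of 9 protein prenylation genes, which use isoprenoid diphosphates, 8 were tested and 0 passed in any comparison. Of all genes, 0.79%, 0.836% and 0.00782% passed in the 3 comparisons, so a list of 8 could hardly show more. At an unadjusted p under 0.05, 3 of the 8 were higher in Y3 against WT (13.4% of all genes were): Rabggtb, a subunit of the Rab prenyltransferase (0.75 ± 0.20, adjusted p = 0.112), Icmt, the methyltransferase of prenylated proteins (0.33), and Fnta, an α subunit shared by prenyltransferases (0.37). In Y3/CD103-/- against WT 2 were higher (7.9% of all genes), Rabggtb (0.68) and Icmt (0.44), and 1 was lower (5.35% of all genes), Pggt1b (-0.34, adjusted p = 0.359). Pggt1b, a β subunit of protein prenyltransferases, was also the 1 gene lower than in Y3 (8.12% of all genes), at 4.16 to 4.48 against 4.86 to 4.98 (-0.62, adjusted p = 0.308).

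Of 30 further genes of fatty acid and glycerolipid synthesis, 18 were tested. With limma 1 of the 18 passed in Y3/CD103-/- against WT, where 0.836% of all genes did. In Y3 against WT 0 passed (0.79% of all genes did), and in Y3/CD103-/- against Y3 0 passed (0.00782%). Dgat1, which makes triglyceride from diacylglycerol, had 9.23, 9.17 and 9.13 for WT, 9.82, 9.66 and 9.99 for Y3, and 10.17, 10.06 and 10.15 for Y3/CD103-/-. The 3 groups did not overlap. Dgat1 rose by 0.95 ± 0.15 in Y3/CD103-/- (adjusted p = 0.0178 with limma) and differed by 0.65 ± 0.15 in Y3 (adjusted p = 0.0769). The rise did not pass without WT array 2 or 3 (0.0534 and 0.0515) or Y3/CD103-/- array 1 or 3 (0.0578 and 0.0759), or with the 6 arrays alone (0.0773). Dgat2, the other such enzyme, differed by -0.63 and -0.62, without passing. Mlxipl, which encodes the glucose-responsive factor ChREBP, had 3.35 to 3.94 in WT and 2.73 to 2.84 in Y3 (difference -0.86 ± 0.19, adjusted p = 0.0677). It exceeded the array median on all WT arrays and on no Y3 array, so it entered the tests mainly through the group where it was bright, and its difference is given as a description. Tecr, the last enzyme of the elongation cycle, differed by -0.44 in Y3/CD103-/- against WT (adjusted p = 0.227). At an unadjusted p under 0.05, 2 of the 18 were higher and 2 lower in Y3 against WT, where 13.4% of all genes were higher and 3.6% lower. The counts were 2 and 3 in Y3/CD103-/- against WT (7.9% and 5.35% of all genes), and 0 and 1 against Y3 (1.78% and 8.12%). Mlxipl is counted among the lower genes in both comparisons with WT, so those counts include a gene that entered through its bright group. The medians of the 18 were 0.19, 0.09 and -0.07 in the 3 comparisons, against 0.15, 0.04 and -0.10 for all genes.

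Of 19 fatty acid oxidation genes 16 were tested and 0 passed in any comparison with limma, where 0.79%, 0.836% and 0.00782% of all genes did. In Y3, 3 of the 16 were higher at an unadjusted p under 0.05 (13.4% of all genes), Etfb (0.52), Acadl (0.43) and Acaa2 (0.36). Against Y3, 2 of the 16 were lower in Y3/CD103-/- (8.12% of all genes), Acadm (-0.61) and Acaa2 (-0.46). Against WT, Y3/CD103-/- had 0 of the 16 at an unadjusted p under 0.05, where 7.9% of all genes were higher and 5.35% lower. Of 11 sterol efflux and LXR target genes 7 were tested and 0 passed with limma, against the same 0.79%, 0.836% and 0.00782% of all genes. At an unadjusted p under 0.05, 0 were higher and 1 lower in Y3 against WT (13.4% and 3.6% of all genes), 0 and 1 in Y3/CD103-/- against WT (7.9% and 5.35%), and 1 and 2 against Y3 (1.78% and 8.12%). Apoe, a lipid carrier that macrophages also express, differed by -0.83 in Y3 against WT (adjusted p = 0.115) and by 0.87 in Y3/CD103-/- against Y3 (adjusted p = 0.308). In the latter comparison Nceh1, a cholesteryl ester hydrolase, differed by -0.69 and Mylip, the ligase that degrades the LDL receptor, by -0.45, and against WT Smpdl3a, an LXR target, differed by -0.35. Of the 11 tested macrophage and dendritic cell markers, 9 were lower and 2 higher in Y3 than in WT (median -0.41, range -1.80 to 0.77), with Cd68 the highest. Of all genes 70.5% were higher there. Between Y3/CD103-/- and Y3, 9 were higher and 2 lower in the former (median 0.31, range -0.21 to 1.25), where 33.8% of all genes were higher. The part of these cells in the Apoe values was not tested.

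Some of these genes lie on the chromosomes of the altered genes in the GRCm38.p6 gene table. Dgat1, Srebf2 and Sqle share chromosome 15 with Il2rb, with 55, 88 and 173 protein-coding genes between. Srebf1, Acaca, Acly and Fasn share chromosome 11 with Itgae, with 234, 212, 507 and 880 genes between. The part of linkage in the values of these 7 genes was not tested.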

How the data were processed

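RNA from sorted Tregs of 3 genotypes was measured on 9 arrays. The authors deposited log2 signal values that RMA produced, per the submitters' processing notes. Their range (0.115 to 14.05, array medians 3.15 to 3.23) gave the scale, and RMA settings, build and annotation were not stated in these sources. Of 39137 features, 23521 named exactly 1 gene in the platform annotation and were kept, with the brightest feature of each of 22180 genes. Genes above the array median on at least 3 of 9 arrays were tested (12792). limma 3.58.1 (lmFit, eBayes) in R 4.3.3 fitted group means to all 9 arrays with no block and 10.8 degrees of freedom; tests were 2-sided, adjusted by Benjamini-Hochberg within each comparison at 0.05, and the fit was tested on simulated data. All 30 genes were named. Array values were to be given for genes with an unadjusted p under 0.05 in any comparison, for Srebf1, Srebf2 and Insig1 and for the gene of highest signal, Elovl5, and up to 4 genes of smallest p from each other list. Array values of Hmgcs1, Cyp51, Fads2, Msmo1, Dhcr7 and Acss2 were added after they were seen. Members, lists and tests were chosen with earlier results of these data known. Promoters are from RefSeq. Alternatives changed the filter, features per gene, scaling, variance model, weights, arrays and block.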

Additional observations from a re-analysis of the deposited data

How the results depend on the processing

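The count of 1 called gene in Y3 versus WT (Nsdhl) became 2 with a stricter filter on dim genes, with a trended and robust variance and with array weights, where Elovl6 joined it. Of all genes, 101 of 12792 were called as reported, and 156 of 9512, 346 of 12792 and 346 of 12792 under these 3 settings. The count of the set became 0 with only the 6 arrays compared or with Y3 arrays 1 and 3 averaged (adjusted p of Nsdhl 0.058 and 0.115), where 63 and 12 of all genes were called. It was 0 to 1 with 1 array left out. In Y3/CD103-/- versus WT the count of 1 (Elovl6) became 3 with the trended and robust variance and 0 with the 6 arrays, and was 0 to 2 with 1 array left out. Of all genes, 107 were called there as reported, 309 with that variance and 17 with the 6 arrays. The count of the set stayed at 0 in Y3/CD103-/- versus Y3 under all alternatives run. Genes of the set at an unadjusted p under 0.05 were counted under the alternatives without the matching share of all genes. In Y3 versus WT, 6 as reported, they were 3 after quantile normalization, 8 with the trended and robust variance, 7 with array weights and 4 to 7 with 1 array left out. They were 4 to 8, from 7, in Y3/CD103-/- versus WT. In Y3/CD103-/- versus Y3, 1 as reported, they were 2 with no filter, quantile normalization, trended variance or centring on the genes tested, 4 with array weights, 3 with the 6 arrays, 0 with Y3 arrays 1 and 3 averaged and 0 to 3 with 1 array left out. The median difference of the set in Y3 versus WT, 0.18, was 0.03 after quantile normalization, 0.02 after centring on the genes tested (an alternative chosen after seeing the data) and 0.12 to 0.31 with 1 array left out. In Y3/CD103-/- versus Y3 it turned from -0.09 to 0.06 after that centring, was 0.01 after quantile normalization and was -0.11 to 0.06 with 1 array left out, the last without Y3/CD103-/- array 3. The causes were not tested. With the replicate number as a block, the called genes among all tested went from 101 to 54, from 107 to 55 and from 1 to 1; the pairing of numbers was not borne out, since deviations of same-numbered arrays correlated at r from -0.04 to 0.11 (9 pairs, 1 of them over 0.1) and not every array correlated best with its own number, and Nsdhl (adjusted p = 0.0426) and Elovl6 (0.0364) passed in the comparisons that called them. Genes called among all tested also ranged from 8 to 346 in Y3 versus WT, from 17 to 309 in Y3/CD103-/- versus WT and from 1 to 10 in Y3/CD103-/- versus Y3. In Y3 versus WT, 79 rose and 22 fell, against 46 and 32 after quantile normalization and 46 and 54 after centring on the genes tested. The log2 intervals of single genes reached about 0.3 to 0.8 to either side, which limits what 3 arrays a group could show.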
